A study of Mus musculus with 14 samples.

Results

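Transcripts of 10 genes that control the shape, removal and DNA upkeep of mitochondria were followed across all 14 libraries of a mouse RNA sequencing series. The genes were taken by symbol: the fusion genes Mfn1, Mfn2, Opa1 and Oma1, the fission genes Dnm1l, Fis1 and Mff, the mitophagy genes Pink1 and Fundc1, and Tfam. They are 10 of the 19940 genes in the deposited table, and all 10 were among the 12096 that reached a normalised count of 10 in at least 7 libraries. A normalised count is the deposited log2 value turned back to a linear scale that is comparable between libraries. The cells were monocyte-derived macrophages sorted from the central nervous system. The disease was experimental autoimmune encephalomyelitis, which models multiple sclerosis in mice, taken at its peak. There were 7 mCAT libraries from CD45.2 donors, titled CCR2creERT2/+ mcat lsl/wt, and 7 wt libraries from CD45.1 donors. Both kinds of marrow had been placed in equal numbers into lethally irradiated hosts, and tamoxifen is given as the treatment of every sample. The mCAT cells thus carry a Cre recombinase at the Ccr2 locus that works only after tamoxifen, and a catalase directed to mitochondria that works only in cells in which Cre has acted. The sources used here do not give the age of the mice, the genotype of the hosts or the share of cells in which Cre acted.

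Mitochondria join and divide continually. The mitofusins, encoded by Mfn1 and Mfn2, join outer membranes and the GTPase OPA1 joins inner membranes, while the protease OMA1 cleaves OPA1 under stress and thereby stops fusion. Division needs the dynamin-related GTPase encoded by Dnm1l, which is drawn to the outer membrane by adaptors such as MFF and FIS1. Damaged mitochondria are marked for autophagy by the kinase PINK1 or by receptors such as FUNDC1. TFAM coats mitochondrial DNA and starts its transcription. Hydrogen peroxide, which catalase breaks down, is one of the signals known to bear on mitochondrial shape and turnover, and macrophages are known to alter both during inflammation.

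None of the 10 genes passed the test between genotypes. In limma's moderated test on the deposited log2 values, 0 of 10 reached an adjusted p of 0.05, with an adjusted p of 0.878 or more, against 24 of the 12096 genes tested (0.198%). Library codes fall into the series C1 and C2, and a shared stem of the code pairs 6 mCAT with 6 wt libraries. With these pairs, 0 of 10 passed, with an adjusted p of 0.511 or more, against 39 genes (0.322%). At an unadjusted p of 0.05, 1 of 10 passed without pairing and 1 of 10 with it, Mfn2 in each, beside 5.37% and 9.23% of all genes tested. The genotypes overlapped in all 10 genes, but the share of all genes tested that overlap was not computed. Of the 10 log2 differences 5 were above and 5 below 0, with a median of 0.012, beside a median of -0.0012 over all genes tested.

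Depth, estimated roughly from the steps between low values, spanned 27.7 to 47.0 M reads (M for mega) for the mCAT group and 16.7 to 43.4 M for the wt group. Library wt 7 was the shallowest, at 16.7 M. Library wt 1 stood apart from the rest on the first 2 principal components. In it, mitochondrially encoded transcripts made up 2.69% of all normalised counts, against 0.402% to 1.11% in mCAT and 0.756% to 1.46% in the other wt libraries. It also held the highest summed T cell markers, at 1114 normalised counts, where mCAT libraries held 172 to 462 and wt libraries 298 or more. Summed natural killer cell and erythroid markers were highest there too. All 12 markers of monocyte-derived macrophages were measured and summed to at least 1567330 normalised counts in mCAT and 1392800 in wt libraries. The lowest wt sum was in wt 1, and Lyz2 alone averaged 1508180 in mCAT and 1763020 in wt. At an unadjusted limma p under 0.05, 3 of the 12 passed without pairing and 6 with it, beside 5.37% and 9.23% of all genes. The 3 were Itgam and Csf1r, higher in mCAT, and Ccr2, lower. Microglia markers summed to 28447 to 82648 in mCAT and 18622 to 81613 in wt libraries. For oligodendrocyte markers the sums were 4932 to 6930 in mCAT and 4410 to 10479 in wt. Of 9 T cell markers tested 8 lay below 0 (mCAT minus wt), with a median log2 difference of -0.48, and 7 had an unadjusted limma p under 0.05 without pairing and 7 with it, beside 5.37% and 9.23% of all genes. The part of these other cells in the differences given here was not tested. Over 12 lists of cell type markers, 0 of 72 markers tested passed without pairing and 1, Ccr2, passed with it at a paired log2 difference of -0.80. The Ccr2 locus also holds Cre in mCAT cells, so the altered allele and a change in the cells cannot be told apart. Mouse Cat, the catalase gene, averaged 2831 normalised counts in mCAT and 2155 in wt libraries (n = 7 each, log2 difference 0.39, SE 0.21, adjusted p = 0.878 by limma). Which species the added catalase comes from is not stated, so this level need not include it. In sorted bulk samples fewer cells of a type and less RNA per cell cannot be told apart. No label says that libraries of 1 genotype came from separate mice, so p-values measure the spread between these samples.

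The promoters of 5 of the genes are shown because Opa1 and Mfn2 had transcripts that varied together across libraries (given further on), Pink1 varied most of the 10, Mfn1 is the other mitofusin gene and Tfam is the textbook target of the factors NRF1 and GABP. Each is the 250 bases before the start site in RefSeq, build GRCm38.p6, 5′ to 3′ on the strand of the gene. Capitals mark the NRF1 palindrome, which is GCGC, any 2 bases and the first word repeated, or a match of the ETS family. The ETS core, to which GABP binds, was searched as CCGGAAG on either strand.
Opa1, chr16:29579084-29579333, plus strand: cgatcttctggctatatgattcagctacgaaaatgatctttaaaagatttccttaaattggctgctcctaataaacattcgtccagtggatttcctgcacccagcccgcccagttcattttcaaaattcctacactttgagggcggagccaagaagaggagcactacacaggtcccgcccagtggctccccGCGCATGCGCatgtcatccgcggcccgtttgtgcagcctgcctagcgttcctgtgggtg
Pink1, chr4:138326297-138326546, minus strand: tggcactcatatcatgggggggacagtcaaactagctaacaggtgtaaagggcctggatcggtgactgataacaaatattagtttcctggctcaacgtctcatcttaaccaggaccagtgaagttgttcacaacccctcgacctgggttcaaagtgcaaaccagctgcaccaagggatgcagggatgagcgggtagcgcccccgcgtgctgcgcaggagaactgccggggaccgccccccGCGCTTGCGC
Mfn2, chr4:147904699-147904948, minus strand: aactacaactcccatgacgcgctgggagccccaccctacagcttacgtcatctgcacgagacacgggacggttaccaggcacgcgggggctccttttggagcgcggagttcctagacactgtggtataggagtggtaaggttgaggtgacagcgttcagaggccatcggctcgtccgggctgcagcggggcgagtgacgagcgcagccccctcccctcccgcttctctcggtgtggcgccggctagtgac
Tfam, chr10:71238045-71238294, minus strand: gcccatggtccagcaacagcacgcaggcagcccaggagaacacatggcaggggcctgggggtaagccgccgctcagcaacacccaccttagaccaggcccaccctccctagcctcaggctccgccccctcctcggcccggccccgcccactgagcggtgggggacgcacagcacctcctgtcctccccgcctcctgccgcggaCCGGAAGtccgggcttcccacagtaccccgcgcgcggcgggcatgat
Mfn1, chr3:32529232-32529481, plus strand: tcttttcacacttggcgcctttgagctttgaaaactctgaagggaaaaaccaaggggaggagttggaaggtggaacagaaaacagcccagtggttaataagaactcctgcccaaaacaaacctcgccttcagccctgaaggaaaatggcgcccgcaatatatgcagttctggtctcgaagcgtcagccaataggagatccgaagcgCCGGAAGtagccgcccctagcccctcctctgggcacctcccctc

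All 10 genes matched the promoter table, with 15 windows. The NRF1 palindrome stood in windows of 3 genes, Opa1, Oma1 and Pink1, and in 5.64% of the 27025 genes of the table. It began 59 bases before the start site in Opa1, 23 in Oma1 and 10 in Pink1. The ETS core stood in 3 others, Mfn1, Fis1 and Tfam, and in 7.83% of all genes, so no gene of the 10 held both. It began 47 bases before the start site in Tfam, 44 in Mfn1 and 18 in Fis1. The Sp1 box GGGCGG stood in 9 of 10 genes, all but Fundc1, and in 35.4% of all genes. The E-box CACGTG stood in 0 of 10 and in 6.86% of all genes. Each motif was counted on its own on both strands, so matches of different motifs may overlap. These are matches of letters, not sites shown to be bound. An absence holds only for the windows searched, of which Fundc1 had 1.

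Mfn2 (ENSMUSG00000029020, chromosome 4), whose product also tethers mitochondria to the endoplasmic reticulum, was the fusion gene with the smallest p. Its normalised counts were 957, 1258 and 1515 (lowest, median and highest) in mCAT and 612, 894 and 1359 in wt libraries. Every mCAT library lay above the wt median, but wt 2 lay above 5 of the 7 mCAT libraries. Mfn2 averaged 1251 ± 224 in mCAT and 964 ± 234 in wt (SD, n = 7 each), a log2 difference of 0.35 (95% interval 0.041 to 0.66, unadjusted p = 0.0288, adjusted p = 0.878 by limma). It was higher in mCAT in 5 of 6 pairs, with a median ratio of 1.15, and mCAT 5 was the exception. The paired log2 difference was 0.26 (0.024 to 0.50, limma adjusted p = 0.511). Within code series C1 it was 0.34 and within C2 0.37. Without wt 1, its lowest library, the difference was 0.26 with an unadjusted limma p of 0.0640, and without wt 2 it was 0.43 with 0.00759. The unadjusted limma p was also above 0.05 without mCAT 1 (0.0633) and without mCAT 6 (0.0613).

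Mfn1 (ENSMUSG00000027668, chromosome 3), the other mitofusin gene, had the fewest counts of the 10 and leaned the other way. Mfn1 had normalised counts of 155, 234 and 392 in mCAT and 201, 334 and 731 in wt libraries, on an estimated 142 to 667 reads a library. The highest value was that of wt 1, and mCAT 5 and mCAT 7 were lower than all wt libraries. Mfn1 averaged 252 ± 93.2 in mCAT and 362 ± 184 in wt (SD, n = 7 each), and 300 ± 93.2 in wt without wt 1. Its log2 difference was -0.34 (95% interval -0.80 to 0.11, adjusted p = 0.878 by limma). Without wt 1 it was -0.19 and with pairing -0.19. It was -0.19 within C1 and -0.55 within C2. Short stretches of other genes resemble its transcript, D6Wsu163e at 90.8% identity over 206 bases and Gm10277 at 90.4% over 208.

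The ratio of Mfn2 to Mfn1 within a library, computed after the values were seen and given without a test, ran from 2.67 to 8.03 in mCAT libraries with a median of 5.69. In wt libraries it ran from 0.837 in wt 1 to 6.38 in wt 2, with a median of 3.29. The ranges overlapped between 2.67 and 6.38, and wt 1 was the library in which Mfn1 was the higher count.

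Opa1 (ENSMUSG00000038084, chromosome 16) followed Mfn2 at a smaller difference. Opa1 had normalised counts of 734, 1103 and 1271 in mCAT and 509, 876 and 1249 in wt libraries, with mCAT 5 lowest in mCAT and wt 1 lowest in wt. The averages were 1064 ± 177 in mCAT and 910 ± 238 in wt (SD, n = 7 each). For Opa1 the log2 difference was 0.22 (95% interval -0.11 to 0.55, adjusted p = 0.878 by limma), and 0.11 without wt 1. Opa1 was higher in mCAT in 5 of 6 pairs, at a paired log2 difference of 0.13. It was 0.27 within C1 and 0.16 within C2.

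Oma1 (ENSMUSG00000035069, chromosome 4), the protease gene, was close to even between genotypes, and its mCAT libraries lay close together. Oma1 had normalised counts of 754, 815 and 903 in mCAT and 562, 803 and 1129 in wt libraries, so that all 7 mCAT libraries lay inside the wt range. The averages were 825 ± 47.8 in mCAT and 821 ± 174 in wt (SD, n = 7 each). The wider wt range came from wt 1 at the low end and wt 7, the shallowest library, at the high end. The difference in spread was not tested. For Oma1 the log2 difference was 0.026 (95% interval -0.22 to 0.27, adjusted p = 0.983 by limma). As a ratio to the wt level the interval runs from 0.857 to 1.21.

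**Figure D1:**
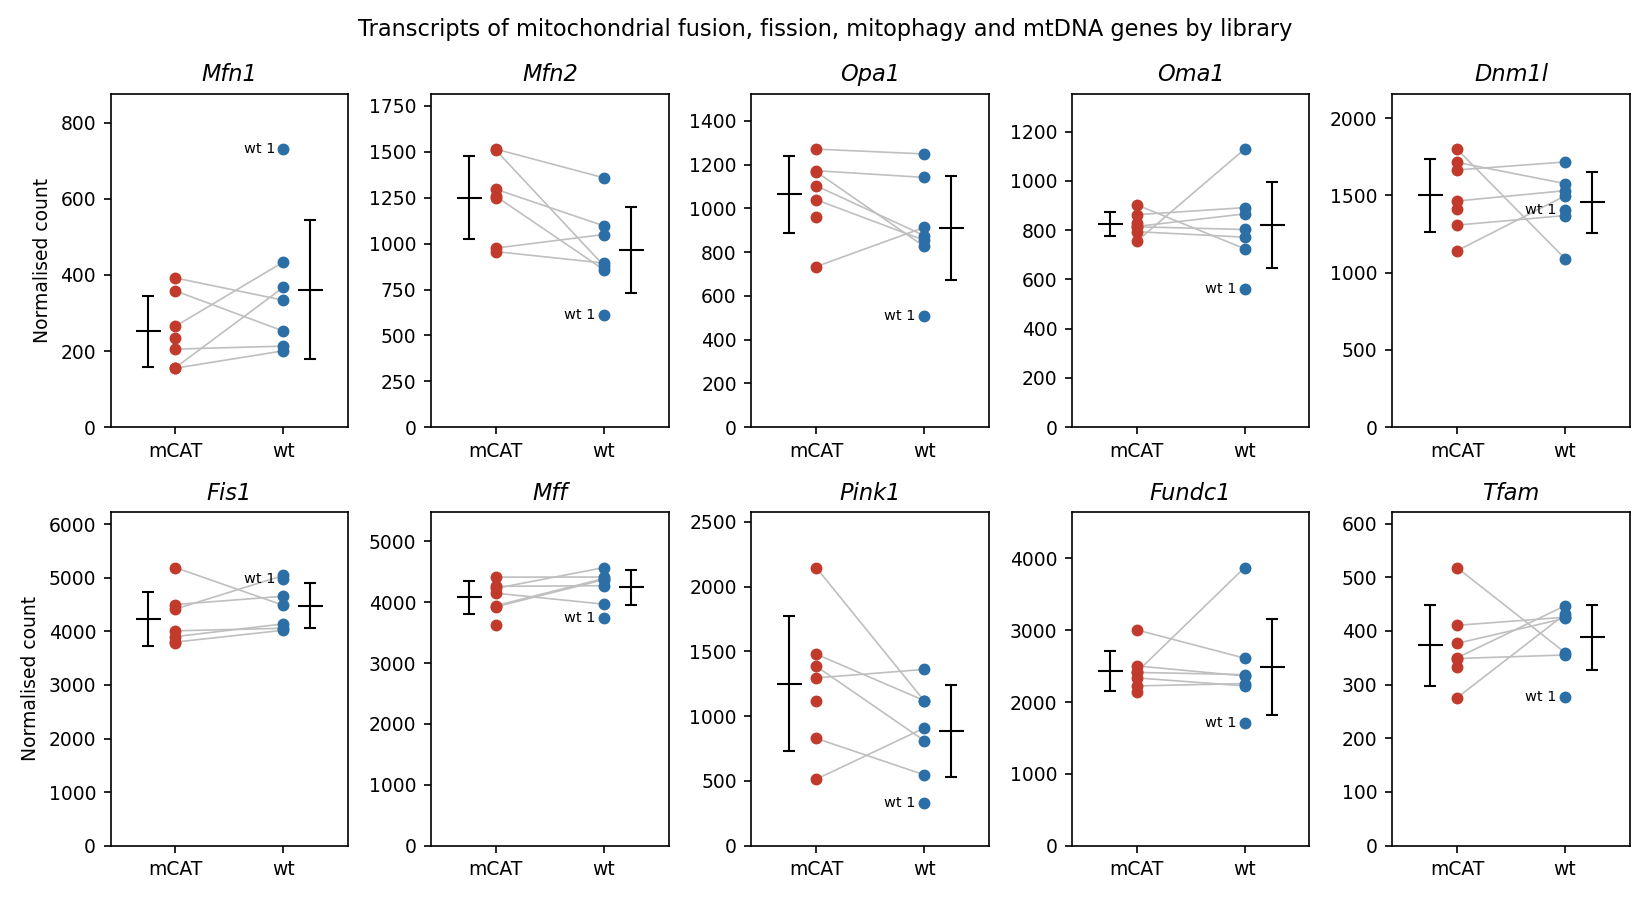
Normalised counts of the 10 genes, with mCAT libraries (red) left of wt libraries (blue). Each point is 1 library, grey lines join the 6 pairs that share a code stem, and black bars give mean ± SD of 7 libraries. The genotypes overlap in every gene, a count not set beside that over all genes tested. Library wt 1 is the lowest wt library in 7 of the 10 genes and the highest in Mfn1.

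Of the fission genes, Dnm1l (ENSMUSG00000022789, chromosome 16) encodes the GTPase that constricts the organelle. Dnm1l had normalised counts of 1142, 1464 and 1800 in mCAT and 1091, 1497 and 1716 in wt libraries, nearly the same span. For Dnm1l the log2 difference was 0.038 (95% interval -0.21 to 0.29, adjusted p = 0.972 by limma), and 4 of 6 pairs were lower in mCAT. Dnm1l reads are somewhat uncertain: a processed pseudogene, Gm13719, is 91.1% identical to its transcript over 2153 bases, and an antisense gene overlaps 243 of its exonic bases in libraries that keep no strand.

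Mff (ENSMUSG00000026150, chromosome 1), the main adaptor that recruits this GTPase, was among the steadiest of the genes tested. Mff had normalised counts of 3626, 4146 and 4410 in mCAT and 3745, 4369 and 4567 in wt libraries, a 1.26-fold range over all 14. The SD within genotypes was 0.095 on the log2 scale, and 11 of the 12096 genes tested had a lower one. Among the 888 genes within 0.5 of its mean log2 level, its SD stood at percentile 0.113. Its log2 difference was -0.057 (95% interval -0.24 to 0.13, adjusted p = 0.940 by limma), and 5 of 6 pairs were lower in mCAT. Mff lies on chromosome 1, as does Ptprc, whose alleles mark the donors, at a distance of 55.4 Mb. None of the 10 genes lies within 10 Mb of Ptprc or Ccr2 (distances in GENCODE M21, GRCm38). How far donor DNA extends around these loci was not measured, so its part in the differences was not tested. An RNA gene on the other strand overlaps 195 exonic bases of Mff.

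Fis1 (ENSMUSG00000019054, chromosome 5), an outer membrane adaptor, had the next narrowest spread. Fis1 had normalised counts of 3789, 4010 and 5190 in mCAT and 4021, 4486 and 5044 in wt libraries, a 1.37-fold range over all 14. The SD within genotypes was 0.15 on the log2 scale, and 448 of the genes tested had a lower one. For Fis1 the log2 difference was -0.084 (95% interval -0.30 to 0.13, adjusted p = 0.915 by limma), and 5 of 6 pairs were lower in mCAT. The exception was the pair of mCAT 5, the library with the highest Fis1.

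Pink1 (ENSMUSG00000028756, chromosome 4), the kinase that starts ubiquitin-dependent mitophagy, varied most. Pink1 had normalised counts of 513, 1295 and 2146 in mCAT and 333, 907 and 1360 in wt libraries, a 6.44-fold range over all 14. The lowest libraries were wt 1 and mCAT 4 and the highest mCAT 6. Pink1 averaged 1251 ± 519 in mCAT and 885 ± 356 in wt (SD, n = 7 each). The log2 difference was 0.45 (95% interval -0.14 to 1.04, adjusted p = 0.878 by limma), the largest of the 10, with the widest interval. Its SD within genotypes, 0.59 on the log2 scale, was above that of 11468 of the 12096 genes tested. Of 6 pairs 4 were higher in mCAT, with ratios from 0.565 to 1.92. The paired log2 difference was 0.28 (limma adjusted p = 0.612), and the unpaired one was 0.27 without wt 1, 0.62 without mCAT 4, 0.35 within C1 and 0.58 within C2.

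Fundc1 (ENSMUSG00000025040, chromosome X), a mitophagy receptor of the outer membrane, was even between genotypes apart from single libraries. Fundc1 had normalised counts of 2143, 2413 and 3006 in mCAT and 1710, 2364 and 3873 in wt libraries. The wt extremes were wt 1 at the bottom and wt 7, the shallowest library, at the top. The log2 difference was -0.0016 (95% interval -0.29 to 0.29, adjusted p = 0.999 by limma). Its sign depended on which libraries entered, at 0.11 without wt 7 and -0.081 without wt 1.

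Tfam (ENSMUSG00000003923, chromosome 10), the packaging factor of mitochondrial DNA, was measured on an estimated 163 to 652 reads a library. Tfam had normalised counts of 275, 350 and 518 in mCAT and 278, 424 and 447 in wt libraries. The highest and the lowest of all 14 libraries were mCAT 1 and mCAT 2, and 6 of 7 mCAT libraries lay below the wt median. The averages were 373 ± 76.1 in mCAT and 389 ± 60.6 in wt (SD, n = 7 each). For Tfam the log2 difference was -0.050 (95% interval -0.31 to 0.21, adjusted p = 0.964 by limma), which as a ratio to wt spans 0.805 to 1.16. In pairs it was lower in mCAT in 5 of 6, at a paired log2 difference of -0.091 (limma adjusted p = 0.836).

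No relation was detected between Tfam and the transcripts of the mitochondrial genome. Its level and the summed mitochondrially encoded transcripts correlated at Pearson's r of -0.11 over 14 libraries (permutation p = 0.716) and at Spearman's rho of 0.095 (permutation p = 0.75), with adjusted p of 0.867 and 0.943. Without mCAT 1 and mCAT 2, farthest from the median of Tfam, r was -0.14, and it was -0.30 within C1 and 0.86 within C2. In wt 1, where mitochondrially encoded transcripts were highest, Tfam had 278 normalised counts, the lowest of the wt libraries. The 12 mitochondrially encoded genes tested had a median log2 difference of -0.42, with 12 below 0, and of -0.20 within pairs, which leave out wt 1, and 0 of 12 passed by limma with or without pairing, with 0 of 12 at an unadjusted p under 0.05.

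**Figure D2:**
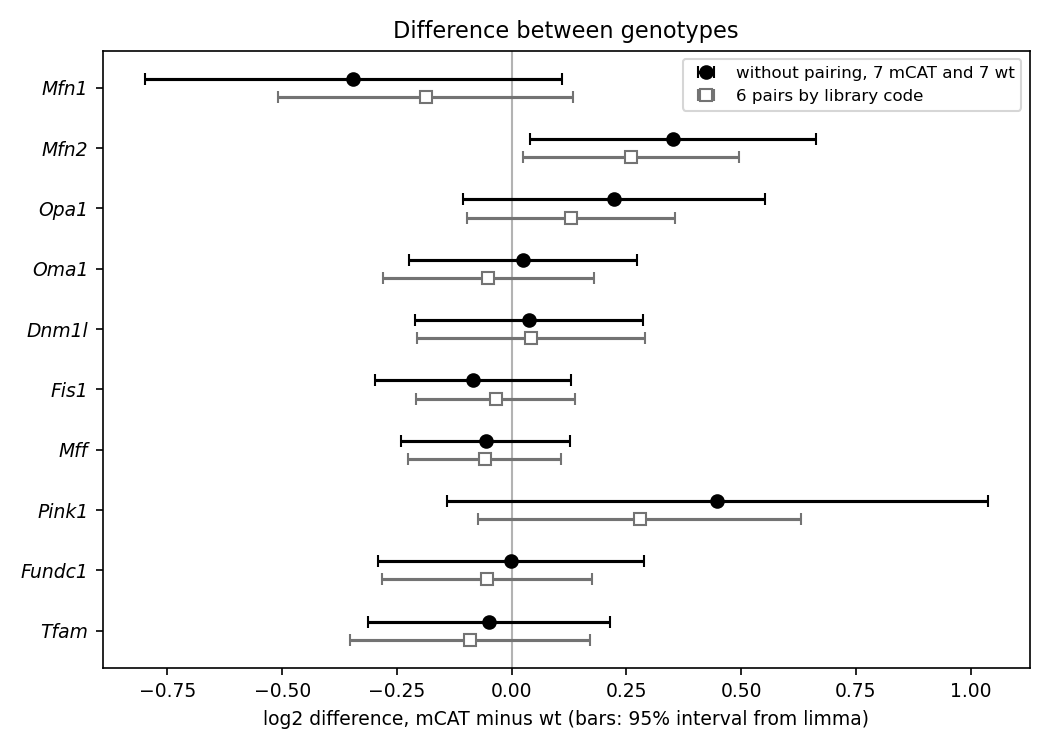
Log2 difference of each gene, mCAT minus wt, with 95% intervals from limma, without pairing (black circles, 7 mCAT and 7 wt libraries) and within the 6 pairs by library code (open squares). All intervals but those of Mfn2 include 0, and no gene passed after adjustment over all genes tested.

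Levels can be compared between genes only per length, here as normalised counts per kilobase of the principal transcript of GENCODE M21. Fis1 was highest, at 5382 ± 650 per kilobase in mCAT and 5702 ± 543 in wt libraries (SD, n = 7 each). Then came Mff with 2152 in mCAT and 2242 in wt, and Fundc1 with 1228 in mCAT and 1255 in wt. Pink1 had 527 in mCAT and 373 in wt, Oma1 431 in mCAT and 429 in wt, and Dnm1l 378 in mCAT and 367 in wt. Mfn2 had 288 in mCAT and 222 in wt, and Opa1 171 in mCAT and 146 in wt. Tfam, at 89.6 in mCAT and 93.3 in wt, and Mfn1, at 55.3 in mCAT and 79.3 in wt, came last. Within a library the order held in 14 of 14 between most neighbours. The exceptions were Pink1 over Oma1 in 7 of 14, Oma1 over Dnm1l in 12 and Tfam over Mfn1 in 12, so these 3 steps of the order are not fully separated.

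Across libraries, Mfn2 and Opa1 went up and down together. Over 14 libraries Mfn2 and Opa1 correlated at Pearson's r of 0.89 (permutation p = 4e-05, adjusted p = 0.0022 over 55 relations) and at Spearman's rho of 0.89 (permutation p = 8e-05, adjusted p = 0.0044). Without wt 1 and mCAT 1, farthest from the median of Mfn2, r was 0.78. It was 0.76 in mCAT and 0.96 in wt libraries, 0.92 within C1 and 0.86 within C2. Averaging libraries that share a code stem left 8 values and r = 0.93. There wt 1 and mCAT 3, which have no partner, entered unaveraged. Without wt 1 alone, r over the single libraries was 0.82. This was the only one of the 45 pairs of members to pass the adjustment by both measures. How often genes outside the 10 correlate as strongly was not computed. Other genes correlated more strongly with each, such as Pbxip1 with Mfn2 and Atg7 with Opa1, both at 0.96. Whether the relation is particular to these genes was thus not tested. The named pairs were picked after their values were seen, and libraries of 1 stem are not independent.

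Mfn2 and Pink1 correlated at r of 0.77 (permutation p = 0.00123, adjusted p = 0.0338) but at rho of 0.67 (permutation p = 0.0115, adjusted p = 0.296). Without the same 2 libraries r was 0.64, and it was 0.88 in mCAT and 0.64 in wt libraries, 0.91 within C1 and 0.62 within C2. For Opa1 and Pink1 r was 0.68 (permutation p = 0.00756, adjusted p = 0.137) and rho 0.60 (permutation p = 0.0251, adjusted p = 0.296). Within C1 r was 0.80 and within C2 0.69, and it was 0.42 without wt 1 and mCAT 5, farthest from the median of Opa1. Without wt 1 alone it was 0.45 and without mCAT 5 alone 0.69, so the drop came with wt 1.

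The 2 mitofusin genes tended to opposite sides, largely through wt 1. Over 14 libraries r was -0.63 (permutation p = 0.0156, adjusted p = 0.143) and rho -0.48 (permutation p = 0.0849, adjusted p = 0.311). Within C1 r was -0.80 and within C2 -0.43. Without wt 1 it was -0.36, and without wt 1 and wt 6, farthest from the median of Mfn1, it was -0.23. In mCAT libraries alone r was -0.0088 and in wt libraries alone, with wt 1 among them, -0.85. Averaging libraries that share a code stem gave -0.75, with wt 1, which has no partner, unaveraged. Oma1 and Fundc1 had r of 0.73 (permutation p = 0.00993, adjusted p = 0.137) but rho of 0.090 (permutation p = 0.762, adjusted p = 0.943). Within C1 r was 0.85 and within C2 0.84, but it was -0.32 without wt 1 and wt 7. That relation rests on those 2 libraries.

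**Figure D3:**
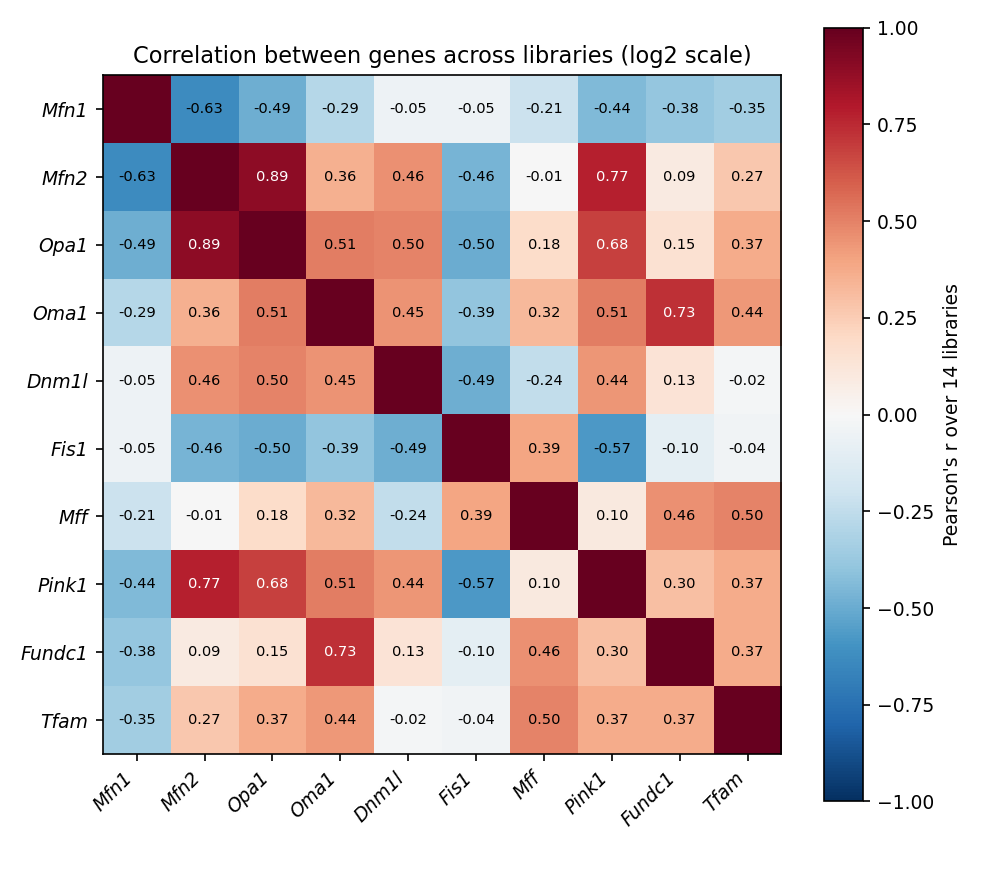
Pearson's r between the deposited log2 values of each pair of the 10 genes over 14 libraries (red positive, blue negative). Mfn2 and Opa1 stand at 0.89, the only pair to pass the adjustment by both measures. The values of Mfn1 rest largely on wt 1: its r with Opa1 is -0.49 over all libraries and -0.0011 without wt 1, and with Pink1 it is -0.44 and -0.060.

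**Figure D4:**
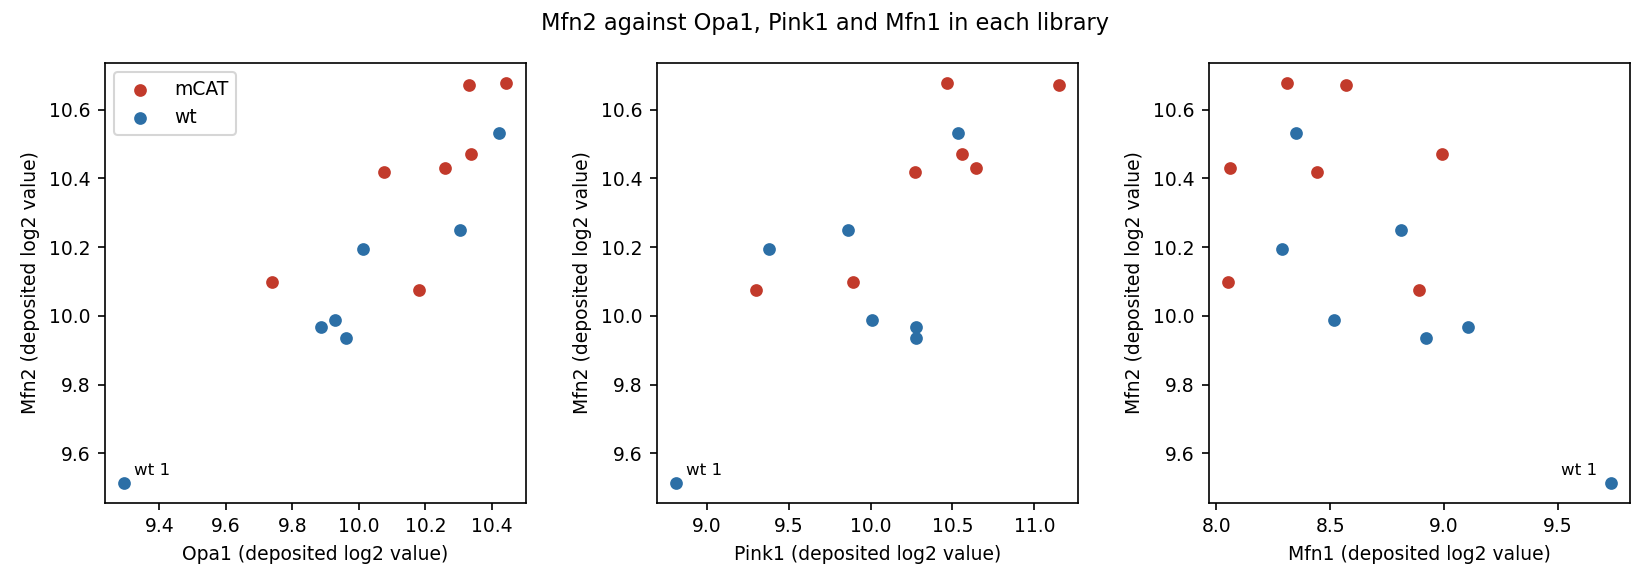
Deposited log2 values of Mfn2 against Opa1, Pink1 and Mfn1 in each library (mCAT red, wt blue). Mfn2 and Opa1 lie along a line at r of 0.89 with libraries of both genotypes, while the relation to Mfn1 depends largely on wt 1 at the lower right.

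By the highest Pearson's r over the 14 libraries among all genes tested, the genes most like Mfn2 were Pbxip1 (0.96), the mitochondrial transporter gene Abcb8 (0.96) and Slc38a10 (0.95). Those most like Opa1 were the autophagy gene Atg7 (0.96), Rab18 (0.96) and Ext2 (0.95). Pink1 was most like Grsf1 (0.94), whose product binds mitochondrial RNA, Eif2d (0.93) and Gga2 (0.93). Tfam was most like Asnsd1 (0.88), an unnamed gene, ENSMUSG00000082519 (0.80), and Dpy19l4 (0.77), and Mfn1 most like Wac (0.92), Trim59 (0.89) and Dnajb13 (0.88). For Fis1 the most alike were Hopx (0.94), Nt5c (0.89) and Alkbh7 (0.89), and for Mff they were Taf9 (0.88), Mrpl27 (0.87) and Dtwd1 (0.85). Fundc1 was most like Odr4 (0.94), Rab14 (0.93) and Rsph3a (0.91), Oma1 most like Ube2w (0.90), Fxr1 (0.88) and Gm12435 (0.87), and Dnm1l most like Iars1 (0.84), Copb1 (0.82) and Usp14 (0.81). These are the top values of 12096 genes over libraries that differ in depth and are partly paired, and without wt 1 they ranged from 0.70 to 0.94.

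Related genes of the same processes gave no call either. Of 124 other genes in 8 lists 119 were tested, and 0 passed with or without pairing by limma. Without pairing, 6 had an unadjusted limma p under 0.05 (5.04%, beside 5.37% of all genes), and 5 of these 6 lay below 0. With pairing, 5 of the 119 did, beside 9.23% of all genes. Of the 119, 59 lay above and 60 below 0.

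With described genes counted in, the fusion list held 15 tested genes (median log2 difference -0.053) with Mfn2 of smallest p, and the OMA1 stress relay 8 (-0.012) with the translation factor gene Eif2s1 at -0.17. The 11 tested genes of the cristae organising complex, which shapes the folds of the inner membrane, had a median of -0.12, with 8 below 0. Smallest in p was Micos13, at 1465 ± 259 in mCAT and 1823 ± 219 in wt libraries (SD, n = 7 each), a log2 difference of -0.30 (adjusted p = 0.878 by limma). The 17 tested fission genes had a median of 0.098, with the membrane-scission GTPase gene Dnm2 at 7201 ± 767 in mCAT and 6156 ± 1122 in wt (log2 difference 0.24).

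Among 22 tested genes of PINK1-dependent mitophagy (median 0.031), the import receptor gene Tomm20 had the smallest p of the 119. Its normalised counts were 2593, 2928 and 3769 in mCAT and 3627, 4040 and 5944 in wt libraries, overlapping only at their edges. The log2 difference was -0.47 (SE 0.13, unadjusted p = 0.00155, adjusted p = 0.444 by limma), and the paired one -0.36 (limma adjusted p = 0.207). The 18 genes of receptor-mediated mitophagy had a median of -0.024, with Map1lc3b, whose product coats autophagosomes, at -0.22.

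The 29 tested genes of mitochondrial DNA replication and transcription had a median of 0.015, with 18 above and 11 below 0. Ssbp1, which encodes the protein that binds single-stranded mitochondrial DNA, had the smallest p, at 1463 ± 188 in mCAT and 1878 ± 304 in wt libraries (SD, n = 7 each), a log2 difference of -0.33 (adjusted p = 0.878 by limma). The 14 tested regulators of mitochondrial biogenesis had a median of -0.0091, with the deacetylase gene Sirt3 at -0.16. Nrf1, which encodes the factor whose palindrome is marked above, averaged 1317 ± 207 in mCAT and 1335 ± 251 in wt. Gabpa averaged 558 ± 80.7 in mCAT and 493 ± 85.1 in wt, and the coactivator gene Ppargc1a 15.1 ± 5.66 in mCAT and 12.9 ± 5.90 in wt; these 3 were named after their values were seen, and none passed.

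**Figure D5:**
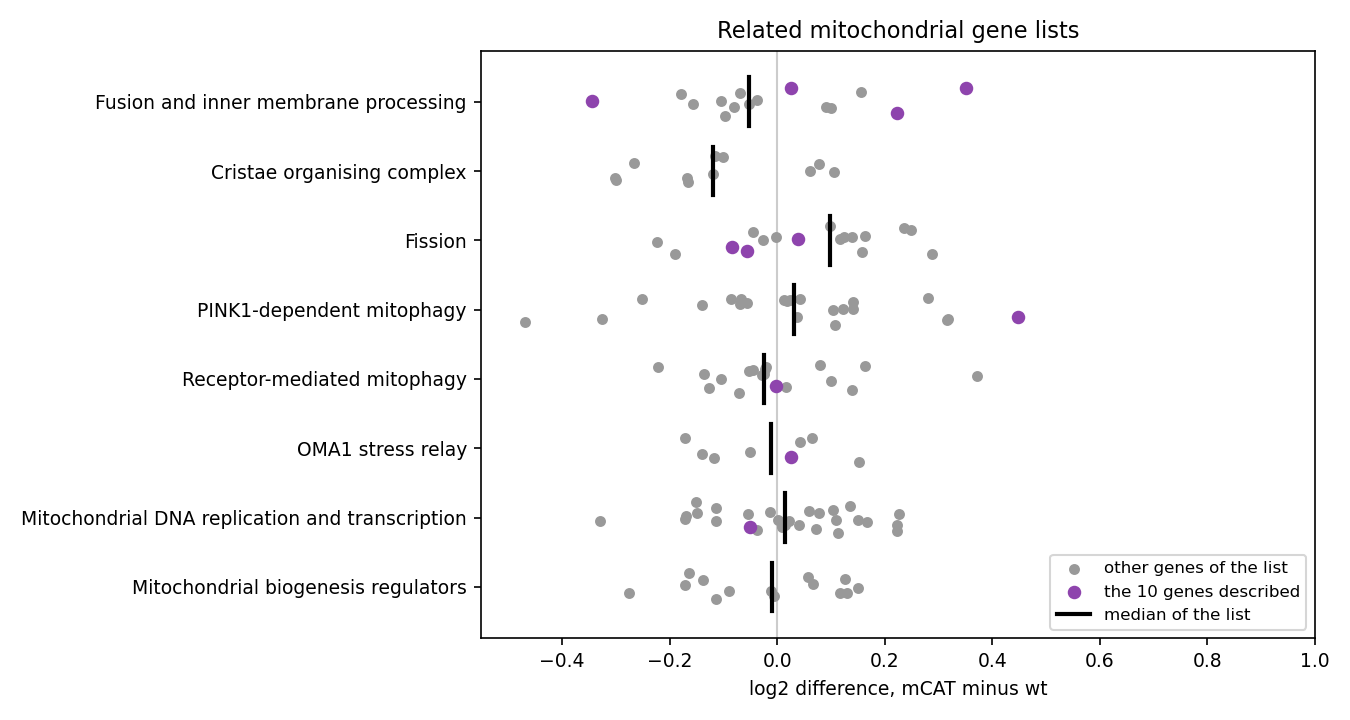
Log2 differences, mCAT minus wt, of the tested genes in 8 lists of related mitochondrial processes, with the 10 described genes in purple, other genes in grey and the median of each list as a black bar. The medians lie between -0.12 and 0.098, and no gene passed the test.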

How the data were processed

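Per the submitters' processing notes, reads were handled with FastQC, fastp and Salmon on GRCm39; the sources used here give neither versions nor annotation. Per the labels' protocols libraries were made with Smart-seq2, which keeps no strand. The authors' deposited table is titled as counts but holds log2 values with 1 shared lowest value, in the form of a variance-stabilising transformation. Undoing that closed form gave the normalised count; reads were not recovered (53.4% to 75.1% of low values came within 0.15 of whole reads), so depth is rough. All 14 columns were matched to samples by library code.

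Genes with a normalised count of 10 in 7 libraries were tested with limma 3.58.1 (R 4.3.3, trend, robust) on the deposited values, mCAT minus wt, 2-sided, with Benjamini-Hochberg adjustment over 12096 genes at 0.05; the script was tested on simulated data. Intervals are limma's. A stem of the library code joins 6 mCAT libraries to 6 wt libraries; deviations of partners correlated at 0.232 to 0.659, so the stem was taken to pair them, although no label says so, and wt 1 and mCAT 3 add nothing to the paired contrast. Title numbers 4 to 7 join the same libraries as code stems do. Numbers 1, 2 and 3 join others, which correlated at -0.294, 0.158 and 0.252. The last lies above the lowest stem pair, mCAT 5 with wt 5 at 0.232, so these correlations do not fully separate the pairings. Correlations of libraries joined by neither are not given here. The pairing by stem is thus an assumption, and title numbers were used as an alternative block only. Replicates of 1 genotype correlated at 0.921 to 0.989.

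The members, lists and tests were chosen with earlier results of these data known. All 10 members were named, in each list of mitochondrial genes the gene of smallest p, any listed gene that passed, and per member the 3 most correlated genes. Correlations used 100000 permutations, adjusted over 55 relations. Copies were sought with blastn 2.17.0 at 90% identity over 200 bases. Promoters came from RefSeq. One gene of the lists is not reported here by name.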

Additional observations from a re-analysis of the deposited data

How the results depend on the processing

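By limma, 0 of the 10 genes and 0 of the related mitochondrial genes passed under each of 26 alternatives. The number called over the whole table, 24, was 39 with the replicate block by code stem and 25 with title numbers as the block, 15 in series C1 alone and 9 in C2 alone, where fewer libraries enter, and 18 to 25 when 1 library was left out. Differences near 0 changed sign. Oma1 (0.026) was -0.051 in the paired fit by code stem and -0.068 in C2, and ran from -0.049 to 0.097 with 1 library left out. Fundc1 (-0.0016) was 0.093 in C1 and ran from -0.081 to 0.11. Fis1 (-0.084) was 0.037 in C2. Dnm1l (0.038) ran from -0.023 to 0.096 and Tfam (-0.050) from -0.12 to 0.0023. The cause was not tested. Mfn1, Mfn2, Opa1, Mff and Pink1 kept their sign under every alternative. With 1 library left out Mfn2 ran from 0.26 to 0.43 and Pink1 from 0.27 to 0.62, each lowest without wt 1, and Mfn1 from -0.43 to -0.19, nearest 0 without wt 1. The correlation of Oma1 and Fundc1 was -0.24 in mCAT libraries alone, a split chosen after seeing the data. Depth covers counting error only and limits Mfn1 and Tfam most.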
